A study of Mus musculus with 4 samples.

Results

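The genes described here are 9 genes of type 2 immunity, the cytokine genes Il4, Il5, Il13, Il9, Il3 and Il24, the transcription factor gene Gata3 and the receptor genes Il1rl1 and Il17rb. They were taken by name, and the 9 were all found among the 23990 gene symbols of the deposited tables. Their RNA was measured in effector CD4 cells (CD44+CD4) that were sorted at the onset of EAE, a mouse model of multiple sclerosis, from spinal cord (called CNS) and from the draining lymph nodes (called dLN). All mice were wild type on the C57BL/6 background and had received a MOG peptide in complete Freund's adjuvant and pertussis toxin. There were 2 libraries per tissue, and no library of naive mice or of unsorted tissue was used here. Cells of the lymph nodes were pooled, and the sources used here state neither the age of the mice nor whether the replicates came from separate animals, so the p-values measure the spread between these libraries, which may be technical. According to the study's methods, the cells were stimulated after sorting with PMA and ionomycin, whereas the sample labels speak of fresh sorting and name no stimulation.

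Type 2 helper T cells (Th2 cells) make IL-4, IL-5 and IL-13, the cytokines of allergy and of defence against worms. GATA3 is the transcription factor that defines this lineage, and in mice the genes Il4, Il13 and Il5 lie in 1 cluster and are opened together in Th2 cells. EAE is driven by the other helper lineages, Th1 and Th17, and type 2 cytokines are known for damping those lineages. Epithelial alarm signals reach type 2 cells through the receptors for IL-33 (encoded by Il1rl1, also called ST2) and IL-25 (encoded in part by Il17rb).

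Values are FPKM, that is fragments per kilobase of transcript relative to all mapped fragments, summed for each gene over its transcripts. Depth and fragment length were chosen so that low FPKM values came closest to whole numbers of fragments, which gave depths of 18.5 M to 22.1 M fragments per library. With these, 87.9% to 91.9% of the same values lay within 0.1 of a whole number. The 20% that chance gives holds for a scale fixed beforehand. A gene was tested with limma on log2(FPKM + 1) if its mean reached 1 FPKM in at least one tissue, and it was called at a Benjamini-Hochberg adjusted p-value under 0.05 over the 10634 genes tested. A log2 ratio is the CNS minus the dLN mean of these values, so a negative ratio is a lower level in CNS, and changes of low genes are understated. For single genes no exact permutation test was run, since with 2 libraries in each tissue its smallest two-sided p is 0.333.

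The libraries of the tissues also stood apart in other ways. The Y-linked gene Ddx3y had 12.7 and 11.2 FPKM in CNS but 0 in either dLN library, and Xist had 26.6 and 22.3 FPKM in dLN but no more than 0.0026 FPKM in CNS, so that sex and tissue cannot be told apart. T-cell markers were high in every library, with a summed level over 12 markers of 2482 to 4193 FPKM, and Cd4 was at 502 and 531 FPKM in CNS and at 82.0 and 66.7 FPKM in dLN. Markers of myeloid cells and microglia summed over 15 genes to 27.3 FPKM in CNS replicate 1, 396 FPKM in CNS replicate 2 and no more than 4.69 FPKM in dLN. Of the markers of basophils, mast cells and eosinophils, cells that also make type 2 cytokines, 8 of 16 were listed at 0 in all 4 libraries, among them Fcer1a, Mcpt8, Prss34 and Epx. The summed level of that list was 2.15 and 6.11 FPKM in CNS and 3.64 and 3.45 FPKM in dLN. Of 2 genes of it tested, Kit was called lower, at 0.525 and 1.31 FPKM in CNS and 2.29 and 2.09 FPKM in dLN. Hdc, at 0.936 and 3.85 FPKM in CNS and 0.293 and 0.593 FPKM in dLN, was not called. The list for group 2 innate lymphoid cells, which holds Areg, Il1rl1 and Il17rb, summed over 10 genes to 84.3 and 97.1 FPKM in CNS and 225 and 241 FPKM in dLN. Areg gave 12.9 and 24.4 FPKM of this in CNS and 181 and 200 FPKM in dLN. Klrg1 went the other way, at 25.6 and 17.8 FPKM in CNS and 2.52 and 2.11 FPKM in dLN, while Nmur1 reached no more than 0.045 FPKM. Of 7 genes of this list tested, 1 was called lower in CNS and 2 higher, against 37.2% and 37.8% of all genes tested. The list for NKT cells summed over 6 genes to 76.0 and 74.7 FPKM in CNS and 205 and 243 FPKM in dLN, mostly Slamf1. Its marker Klrb1c went the other way, at 2.53 and 3.22 FPKM in CNS and 0.0442 and 0 FPKM in dLN. The defining factor Zbtb16 reached no more than 0.132 FPKM. The 2 CD8 markers summed to no more than 5.398 FPKM and the 7 B-cell markers to no more than 2.11 FPKM in any library. The part of such cells in the results below was not tested.

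Of the 9 genes, 7 reached the minimum for testing, and 6 of these were called lower in CNS, where 37.2% of all genes tested were. None was called higher, against 37.8% of all genes, and 74.9% of all genes were called in one direction or the other. For each of the 7 tested genes the CNS values were both under the dLN values, an order seen in 43.7% of all genes tested. Il4, Il5 and Il9 passed the minimum only through dLN, where they were high, so a difference in that direction was built into their being tested, and the counts are a description. The median log2 ratio was -4.002 over the 7 tested genes, that of Il5, or -4.54 with Il5 and Il9 at the lower bounds of their change given below, and 0.05 over all genes tested. The sizes ranged widely, from near the bottom of all genes (Il4, Il3, Il13, Il5) through a change of about 2-fold (Gata3) to a gene that did not pass the test (Il1rl1), while Il24 and Il17rb had 5 fragments or fewer in every library. In bulk RNA of sorted cells, fewer cells that make a cytokine and less of its RNA per cell cannot be told apart.

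**Figure D1:**
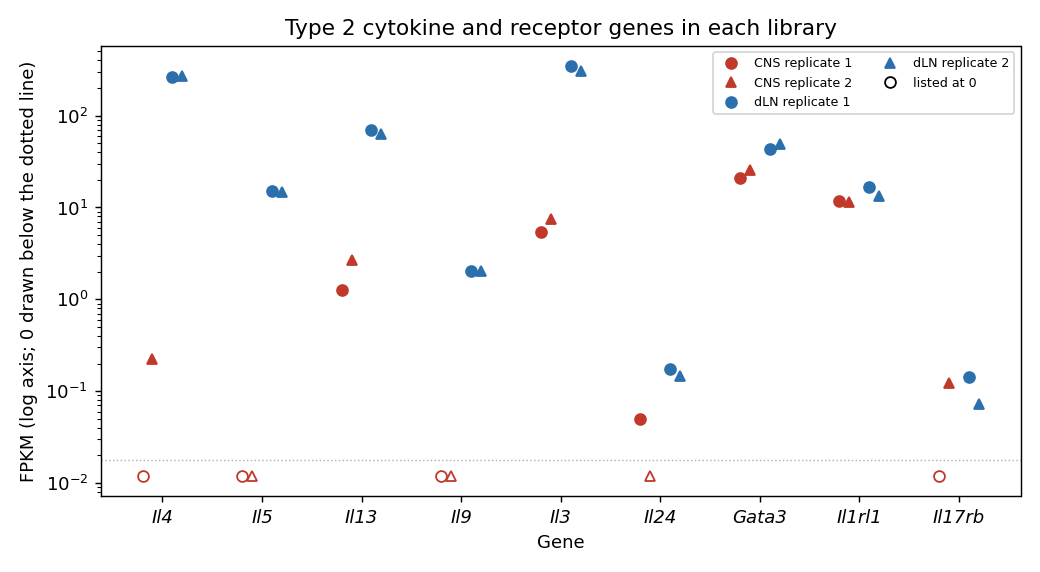
FPKM on a log axis of the 9 genes in each of the 4 libraries, with circles for replicate 1, triangles for replicate 2, and open symbols below the dotted line for values listed at 0. The cytokine genes Il4, Il5, Il13 and Il3 sit far lower in CNS than in dLN, whereas Gata3 and Il1rl1 stay above 10 FPKM in all 4 libraries. Il9 is listed at 0 in CNS and lies at 2.02 and 2.06 FPKM in dLN. The height at which values of 0 are drawn is arbitrary.

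Il4 (Entrez gene 16189, chromosome 11, 53612461 to 53618665, minus strand, build mm10) encodes IL-4, the cytokine that both marks Th2 cells and drives their differentiation. It was listed at 0 in CNS replicate 1 and at 0.225 FPKM in CNS replicate 2, against 266 and 273 FPKM in the dLN libraries. Both CNS libraries were at or near the limit of detection while the dLN libraries lay close together. The dLN libraries held 4389 fragments of Il4 and the CNS libraries 2, a ratio of 2301 per fragment sequenced (95% exact interval 637 to 19007, counting error only). The fitted log2 ratio was -7.93 (standard error, SE, of 0.13, limma adjusted p = 8.12e-05), the third lowest of the 10634 genes, and its size depends on the pseudocount. The tables hold 2 transcripts of Il4. The coding one (NM_021283) carried nearly all the signal in dLN, at 265 and 270 FPKM, and the non-coding one (NR_027491), which has a start of its own, was at 1.15 and 2.34 FPKM. In CNS the coding one was at 0 and 1.82e-06 FPKM. The 2 CNS fragments, of replicate 2, were assigned to the non-coding one, at 0.225 FPKM. The ratio of 2301 thus sets mostly coding fragments of dLN against non-coding fragments of CNS.

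Il13 (Entrez gene 16163, chromosome 11, 53631323 to 53634702, minus strand) encodes IL-13, which shares a receptor chain with IL-4 and acts on epithelium and macrophages. Its values were 1.27 and 2.69 FPKM in CNS and 69.8 and 63.0 FPKM in dLN. Il13 was therefore still read in CNS, from 28 and 59 fragments, unlike Il4. The CNS mean was 1.98 ± 1.004 FPKM (SD, n = 2). The dLN mean was 66.4 ± 4.79 FPKM (SD, n = 2), so Il13 was 33.6-fold lower in CNS. On the log2 scale the ratio was -4.54 (SE 0.25, limma adjusted p = 0.000144).

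Il5 (Entrez gene 16191, chromosome 11, 53720794 to 53725103, plus strand) encodes IL-5, the growth factor of eosinophils. It was listed at 0 in both CNS libraries and was at 15.2 and 14.9 FPKM in dLN, from 379 and 443 fragments. Against a floor of 3 fragments per CNS library (0.104 and 0.103 FPKM), Il5 was at least 143-fold lower in CNS. The fitted log2 ratio was -4.002 (SE 0.10, limma adjusted p = 8.12e-05).

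The promoters of these genes and of Il3 are shown because the 4 genes had the lowest log2 ratios of the set and lie on the same chromosome. The sequences are the 250 bases before the transcript start from RefSeq (GRCm38.p6, the same assembly as mm10), read 5′ to 3′ on the strand of the gene, and 8 of the 9 genes have an entry in that table. Capitals mark the GATA motif (AGATAA or AGATAG or TGATAA or TGATAG, letters that GATA factors bind) and GGAAA, the core that NFAT factors bind, each on either strand, so that a match may appear as its reverse complement. No GATA match overlapped a GGAAA match in these windows.
Il4, chr11:53618666-53618915, minus strand: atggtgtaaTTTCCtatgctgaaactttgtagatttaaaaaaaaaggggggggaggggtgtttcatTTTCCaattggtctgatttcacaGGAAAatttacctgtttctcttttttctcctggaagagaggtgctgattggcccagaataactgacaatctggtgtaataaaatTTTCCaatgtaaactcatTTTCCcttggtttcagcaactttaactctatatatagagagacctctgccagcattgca
Il13, chr11:53634703-53634952, minus strand: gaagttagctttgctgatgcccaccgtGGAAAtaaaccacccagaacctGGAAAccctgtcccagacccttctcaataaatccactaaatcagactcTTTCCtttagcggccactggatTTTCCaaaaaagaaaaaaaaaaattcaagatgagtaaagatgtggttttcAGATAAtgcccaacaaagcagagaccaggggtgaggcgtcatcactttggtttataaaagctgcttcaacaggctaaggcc
Il5, chr11:53720544-53720793, plus strand: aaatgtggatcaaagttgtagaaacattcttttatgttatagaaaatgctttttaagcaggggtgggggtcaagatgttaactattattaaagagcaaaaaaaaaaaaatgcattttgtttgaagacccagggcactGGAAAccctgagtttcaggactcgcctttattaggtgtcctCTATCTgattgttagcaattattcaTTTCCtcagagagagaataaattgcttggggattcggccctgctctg
Il3, chr11:54267280-54267529, minus strand: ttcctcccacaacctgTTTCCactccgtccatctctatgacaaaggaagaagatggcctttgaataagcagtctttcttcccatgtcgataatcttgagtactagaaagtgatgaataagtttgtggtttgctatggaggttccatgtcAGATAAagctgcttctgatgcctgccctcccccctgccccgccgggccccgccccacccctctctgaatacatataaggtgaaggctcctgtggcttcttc

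The Il4 window shown, before the start of the coding transcript, holds 5 GGAAA matches and no GATA match. The window before the start of the non-coding Il4 transcript, not shown, holds 1 GATA match and no GGAAA match. A count of 5 or more GGAAA matches occurs in 0.39% of the 32851 windows of the same length, and at least 1 match in 55.6%. The Il13 window holds 4 GGAAA matches and 1 GATA match, the Il5 window 2 and 1, and the Il3 window 1 and 1. At least 4 GGAAA matches occur in 1.6% of all windows and at least 2 in 21.4%. At least 1 GATA match occurs in 26.5% of all windows. Matches are a description of letters, and no binding was measured here.

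Il3 (Entrez gene 16187, chromosome 11, 54265085 to 54267279, minus strand) encodes IL-3, a growth factor of mast cells and basophils that activated T cells of several lineages make. It was at 5.47 and 7.46 FPKM in CNS and at 344 and 309 FPKM in dLN. Each CNS library lay far below each dLN library, and the smallest fold between a dLN and a CNS library was 41.4. The means were 6.47 ± 1.41 FPKM (SD, n = 2) and 326 ± 24.7 FPKM (SD, n = 2), a 50.4-fold lower level in CNS, for a log2 ratio of -5.46 (SE 0.15, limma adjusted p = 8.12e-05), the 10th lowest of all genes tested. Il3 lies 15.2 kb from Csf2, which encodes GM-CSF, another growth factor that activated T cells make. Csf2 was at 61.7 and 115 FPKM in CNS and at 133 and 51.3 FPKM in dLN, so its tissues overlapped (log2 ratio 0.03, standard error 0.53, limma adjusted p = 0.967). The ratio of Il3 to Csf2 FPKM was 0.089 and 0.065 in the CNS libraries and 2.59 and 6.02 in the dLN libraries. The difference between the changes of the 2 genes was not tested.

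None of the other genes tested between and beside these cytokine genes was called lower in CNS, against 37.2% of all genes tested. They are too few for this to be read as a result about the locus. Of 13 genes listed along the Il4 and Il3 clusters, 9 were tested, and the 4 called lower were Il4, Il13, Il5 and Il3 themselves. Rad50, a DNA repair gene that lies between Il13 (14.8 kb away) and Il5 (13.5 kb away) and holds the locus control region of the cluster, was at 8.68 and 7.98 FPKM in CNS and 5.22 and 4.12 FPKM in dLN (log2 ratio 0.72, limma adjusted p = 0.00575). Irf1, which encodes an interferon-induced transcription factor and lies 44.9 kb from Il5, was also higher in CNS, at 97.1 and 125 FPKM against 43.6 and 35.9 FPKM (log2 ratio 1.45, limma adjusted p = 0.0011). Kif3a, a motor protein gene 8.2 kb from Il4, had a log2 ratio of 0.25 and Slc22a5, a carnitine transporter gene, one of -0.16, and neither passed the test (limma adjusted p = 0.246 and 0.222). Slc22a4, Pdlim4, P4ha2 and Acsl6 stayed under 1 FPKM in every library and were not tested.

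**Figure D2:**
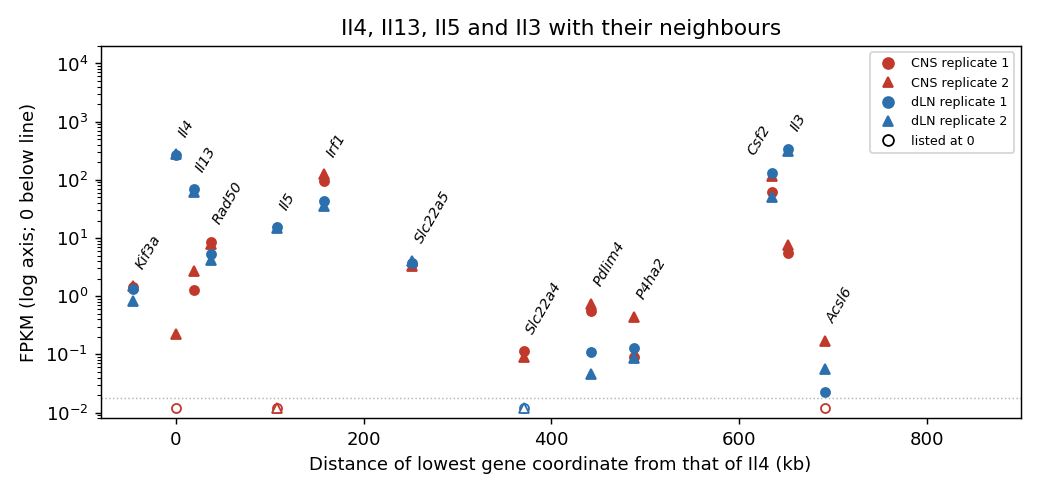
FPKM on a log axis of the genes along the Il4 and Il3 clusters, placed by the distance in kb of their lowest coordinate from that of Il4, with 1 symbol per library and open symbols for values listed at 0. Il4, Il13, Il5 and Il3 are the genes whose dLN symbols lie far above the CNS symbols, while Rad50 and Irf1 lie higher in CNS and the symbols of Csf2 mix.

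Il9 (Entrez gene 16198, chromosome 13, 56479277 to 56482246, minus strand) encodes IL-9, a mast cell growth factor made by Th2 and related T cells. It was listed at 0 in both CNS libraries and was at 2.02 and 2.06 FPKM in dLN. These dLN values rest on 13 and 16 fragments, and against the floor of 3 fragments per CNS library Il9 was at least 4.99-fold lower in CNS. Its log2 ratio was -1.60 (SE 0.14, limma adjusted p = 0.000528). Il24 (Entrez gene 93672, chromosome 1, 130882074 to 130887411, minus strand) encodes a cytokine of the IL-10 family that Th2 cells can make. It was at 0.0495 FPKM and listed at 0 in CNS and at 0.174 and 0.146 FPKM in dLN, that is 1, 0, 3 and 3 fragments. Both tissues were at or under the floor, so no fold is given and the gene was not tested. The neighbours of Il24 in the same cytokine cluster were as low, with Il19 listed at 0 in CNS and at 0.194 and 0.162 FPKM in dLN and Il20 listed at 0 in all 4 libraries. Il10, the anti-inflammatory cytokine gene 132.4 kb from Il24, was read in both tissues, at 3.93 and 4.35 FPKM in CNS and 26.5 and 27.97 FPKM in dLN (log2 ratio -2.46, limma adjusted p = 9e-05). Beyond Il10, Mapkapk2, a stress kinase gene, was lower as well (log2 ratio -1.65) and Dyrk3 was higher (log2 ratio 0.40).

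Gata3 (Entrez gene 14462, chromosome 2, 9857078 to 9878600, minus strand) is needed for T-cell development and reaches its highest level in Th2 cells. It was at 21.2 and 25.8 FPKM in CNS and at 43.8 and 49.6 FPKM in dLN. The tissues did not overlap, but CNS stayed well above the floor. Mean levels of 23.5 ± 3.23 (SD, n = 2) and 46.7 ± 4.14 FPKM (SD, n = 2) made Gata3 1.99-fold lower in CNS, for a log2 ratio of -0.97 (SE 0.13, limma adjusted p = 0.002). This was the 2059th lowest ratio of all genes tested. Of 15 lineage factors listed, 8 were called lower and 5 higher, against 37.2% and 37.8% of all genes tested, and their median log2 ratio was -0.45. Tbx21, the Th1 factor T-bet, was higher in CNS at 46.4 and 49.8 FPKM against 32.7 and 28.1 FPKM (log2 ratio 0.65, limma adjusted p = 0.00429). The neighbours of Gata3 went both ways, with 2 of 5 tested called lower and 3 higher, against 37.2% and 37.8% of all genes tested. Taf3, a general transcription factor gene 36.0 kb away, and Kin were lower (log2 ratios -0.35 and -0.57), whereas Atp5c1, an ATP synthase gene, Itih5 and Celf2 were higher (log2 ratios 1.23, 1.74 and 1.096).

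Il1rl1 (Entrez gene 17082, chromosome 1, 40429570 to 40465414, plus strand) encodes the IL-33 receptor, as a long membrane form and a short form that lacks the membrane part and is secreted. Summed over its transcripts it was at 11.7 and 11.5 FPKM in CNS and 16.6 and 13.2 FPKM in dLN. The CNS libraries lay below the dLN libraries, but the gap was near the spread of the dLN libraries, and the gene did not pass the test (log2 ratio -0.32, standard error 0.13, limma adjusted p = 0.0733). The call depended on the library, since without dLN replicate 2 the log2 ratio was -0.48 (limma adjusted p = 0.0338) and without dLN replicate 1 it was -0.17 (limma adjusted p = 0.291). It also depended on the scaling, with a log2 ratio of -0.51 when every library was rescaled to the same sum (limma adjusted p = 0.0182).

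The long and the short transcript of Il1rl1 were compared between tissues after their values were seen. The long transcript (NM_001025602, 5299 bases) was at 10.95 and 10.4 FPKM in CNS and at 10.4 and 9.13 FPKM in dLN. The lower CNS and the higher dLN library were at nearly the same level, and the transcript did not pass the test, with a log2 ratio of 0.12 in a fit across transcripts (SE 0.11, limma adjusted p = 0.387). The short transcript (NM_001294171, 2904 bases), which the tables describe as isoform b, was at 0.787 and 1.07 FPKM in CNS and 6.16 and 4.06 FPKM in dLN. Here CNS was well below dLN in either library, for a log2 ratio of -1.65 (SE 0.22, limma adjusted p = 0.00342). With means of 0.928 FPKM in CNS and 5.11 FPKM in dLN, the short transcript passed the minimum of 1 FPKM only through dLN. A difference in that direction was thus built into its being tested, and the call is a description. Of the 13565 transcripts tested, 33.8% were called lower in CNS. The short transcript made up 6.70% and 9.29% of the FPKM of Il1rl1 in CNS and 37.2% and 30.8% in dLN. A further short transcript (NM_010743) was listed at or near 0 in all 4 libraries. The transcripts share exons, so these values rest on how the authors' program divided the fragments, and the difference between the 2 changes was not tested.

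**Figure D3:**
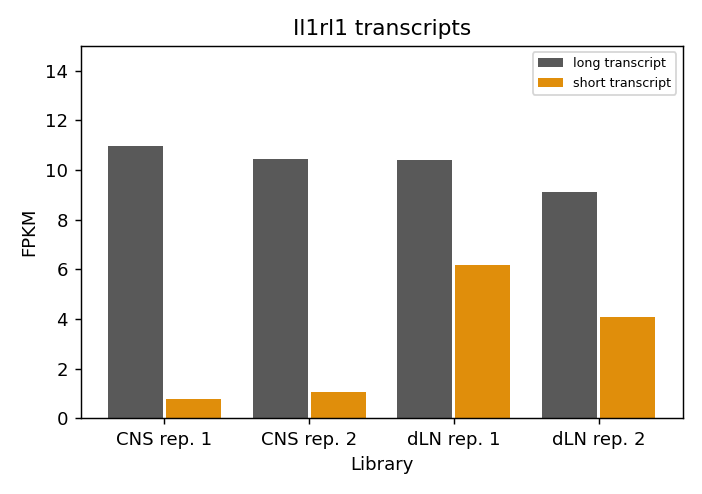
FPKM of the long and the short Il1rl1 transcript in each of the 4 libraries, as bars from 0. The long transcript lies between 9.13 and 10.95 FPKM in every library, whereas the short one reaches 4.06 and 6.16 FPKM in dLN but no more than 1.07 FPKM in CNS.

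As RefSeq lists them, the short and the long transcript start at different positions, 40429570 and 40439629 on chromosome 1. Which start these cells used for either form was not measured. Both windows are shown because the short transcript passed the test and the long one did not. Capitals mark the GATA and GGAAA matches as above.
Il1rl1 short transcript, chr1:40429320-40429569, plus strand: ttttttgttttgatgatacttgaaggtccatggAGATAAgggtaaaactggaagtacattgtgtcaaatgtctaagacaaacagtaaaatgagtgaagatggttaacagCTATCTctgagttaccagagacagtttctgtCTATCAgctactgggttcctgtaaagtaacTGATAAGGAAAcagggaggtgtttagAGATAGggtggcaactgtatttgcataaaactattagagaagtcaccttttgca
Il1rl1 long transcript, chr1:40439379-40439628, plus strand: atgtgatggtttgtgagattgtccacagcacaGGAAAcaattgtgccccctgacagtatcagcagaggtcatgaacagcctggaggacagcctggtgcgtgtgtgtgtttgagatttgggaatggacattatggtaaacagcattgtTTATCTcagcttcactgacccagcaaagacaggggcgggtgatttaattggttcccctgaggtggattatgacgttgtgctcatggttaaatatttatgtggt

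The window before the listed start of the short transcript holds 5 GATA matches, a count that 14 of the 32851 windows (0.043%) reach or pass. The window before the listed start of the long transcript holds 1. NM_010743 shares the start of the long transcript. Il18r1, which encodes a chain of the IL-18 receptor, begins 0.1 kb beyond the end of Il1rl1 and was far higher in CNS, at 149 and 143 FPKM against 13.5 and 8.13 FPKM (log2 ratio 3.68, limma adjusted p = 0.000196). Il1rl2, which encodes the IL-36 receptor and is the nearest listed gene on the other side, was also higher in CNS, at 3.32 and 3.83 FPKM against 1.16 and 0.923 FPKM (log2 ratio 1.16, limma adjusted p = 0.00126). Farther out on that side, Il1r1 and Il1r2, receptor genes for IL-1, were lower, with log2 ratios of -1.84 and -4.59 (limma adjusted p = 0.000542 and 0.000102). The listed genes next to Il1rl1 on either side were thus both called higher in CNS, as were 37.8% of all genes tested, and Il1rl1 was called in neither direction.

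Il17rb (Entrez gene 50905, chromosome 14, 29996168 to 30008896, minus strand) encodes the IL-25-binding chain of that receptor. It was listed at 0 and at 0.123 FPKM in CNS and at 0.144 and 0.0724 FPKM in dLN, from 0, 5, 5 and 3 fragments. The libraries of the tissues mixed, the gene did not reach the minimum for testing, and no difference was detectable at this depth.

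**Figure D4:**
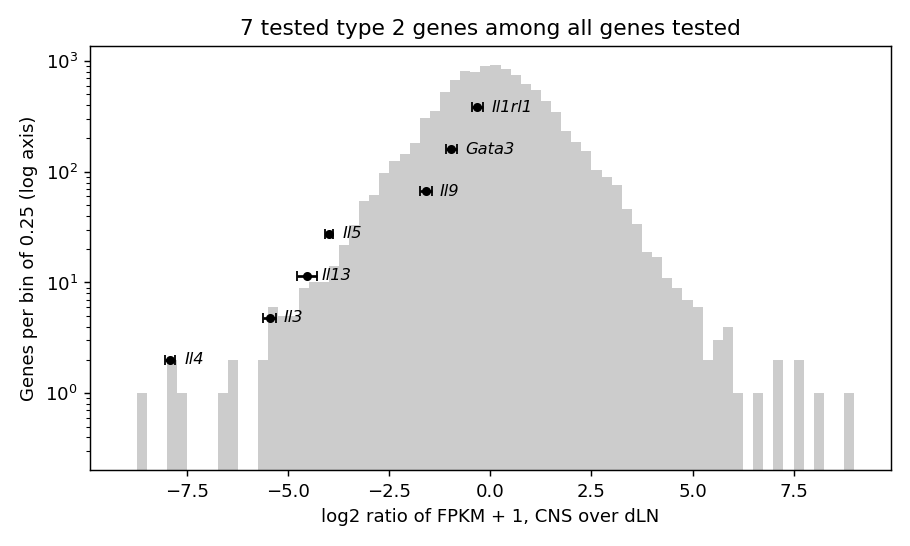
Histogram of the log2 ratios (CNS over dLN, on FPKM + 1) of the 10634 genes tested, with the number of genes per bin on a log axis. The 7 tested genes are points with bars of 1 standard error, at heights chosen only for legibility, and run from -7.93 for Il4 to -0.32 for Il1rl1, all to the left of 0.

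FPKM is scaled per length, so levels can also be ordered between genes. In dLN the order of mean FPKM was Il3 (326), Il4 (270), Il13 (66.4), Gata3 (46.7), Il5 (15.02), Il1rl1 (14.9), Il9 (2.04), Il24 (0.160) and Il17rb (0.108). Il5 and Il1rl1 did not differ beyond the spread of their libraries, and Il24 and Il17rb rest on 3 to 5 fragments each. In CNS the order was Gata3 (23.5), Il1rl1 (11.6), Il3 (6.47), Il13 (1.98), Il4 (0.113), Il17rb (0.0617) and Il24 (0.0248), with Il5 and Il9 listed at 0, and the last 5 genes cannot be ordered at this depth. In dLN the cytokine genes Il3, Il4 and Il13 thus had a higher level than Gata3, and in CNS Gata3 and Il1rl1 had a higher level than every cytokine gene of the set.

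Genes with the most similar levels across the 4 libraries were sought by the Euclidean distance of log2(FPKM + 1) values. Nearest to Il4 were Snora64, a small nucleolar RNA gene too short for a firm FPKM (distance 0.852), Pou2af1 (2.05) and Mmp13 (2.58), and nearest to Il13 were Pus7 (0.748), Mfsd2a (0.858) and Pou2f2 (0.899). Spry1 (0.671), Il21 (1.06) and Slc41a1 (1.16) lay nearest to Il3. Gata3 had much closer neighbours, namely Tagap1 (0.0908), Ranbp3 (0.0993) and Smarca4 (0.2). These distances describe 4 libraries only.

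Other genes of the Th2 pathway were taken from lists of 65 genes in all, of which 53 were tested. Of these, 22 were called lower and 18 higher, and the median log2 ratio was -0.13, near the 37.2% and 37.8% called and the median of 0.05 over all genes tested. Receptor genes for the cytokines were not called lower. Of 6 tested, 2 were called higher, and Il4ra, the receptor chain for IL-4 and IL-13, was at 18.9 and 24.1 FPKM in CNS and 27.8 and 25.1 FPKM in dLN (log2 ratio -0.30, limma adjusted p = 0.114). Il2rg, the common gamma chain that completes the IL-4 and IL-9 receptors, was higher in CNS (log2 ratio 0.67, limma adjusted p = 0.00128), as was Il3ra, the IL-3 receptor alpha chain, at 9.88 and 12.04 FPKM against 4.47 and 4.30 FPKM (log2 ratio 1.14, limma adjusted p = 0.000921). Csf2rb and Csf2rb2, beta chains for IL-3, are close paralogs between which reads could be split. Both were listed at 0 in dLN and mainly read in CNS replicate 2, at 6.04 and 4.401 FPKM, the library with the higher myeloid markers. Il5ra and Il13ra2 were listed at 0 in all 4 libraries.

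Of the 6 partner chains and receptors for alarmins and related cytokines, 4 were called higher, against 37.8% of all genes tested, and 1 lower, against 37.2%. Il1rap, the chain that pairs with the Il1rl1 product, was lower in CNS at 3.64 and 3.05 FPKM against 10.6 and 11.8 FPKM (log2 ratio -1.50, limma adjusted p = 0.000369). Il17ra, which pairs with the Il17rb product, was slightly higher (log2 ratio 0.40, limma adjusted p = 0.0103), and Crlf2, the receptor chain for TSLP, did not pass the test (log2 ratio 0.16, limma adjusted p = 0.323). Il7r, Il18r1 and Il18rap had the largest ratios of the list, at 3.82, 3.68 and 2.96.

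Among 27 tested transcription factors and signal carriers, 11 were called lower and 9 higher, shares near the 37.2% and 37.8% of all genes tested. Irf4, a factor needed for Th2 and Th9 cytokines, was at 30.8 and 39.7 FPKM in CNS and 348 and 362 FPKM in dLN (log2 ratio -3.31, limma adjusted p = 9.15e-05). Stat5a, which carries IL-2 signals that help open the Il4 locus, was at 13.4 and 19.6 FPKM against 121 and 123 FPKM (log2 ratio -2.84, limma adjusted p = 0.000215). Batf, Gfi1 and Stat6, the signal carrier of IL-4, were also lower, with log2 ratios of -1.44, -1.33 and -0.45. Not every factor that acts on the Il4 gene was lower, since Maf, which activates the Il4 promoter, was at 26.8 and 30.6 FPKM in CNS and 12.9 and 9.03 FPKM in dLN (log2 ratio 1.33, limma adjusted p = 0.00216). Junb, an AP-1 member of Th2 cells, rose as well (log2 ratio 2.38), and so did Runx3, which with T-bet silences Il4 (log2 ratio 2.48), and Tcf7, which can promote Gata3 (log2 ratio 2.402). The NFAT genes diverged, with Nfatc1 at -0.82 and Nfatc2 at 1.72.

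Of 14 tested surface receptors and effectors of Th2 cells, 10 were called lower, against 37.2% of all genes tested, and 3 higher, against 37.8%. Ccr4 and Ccr8, chemokine receptors of Th2 and regulatory T cells, were at 17.7 and 19.6 FPKM and at 33.7 and 47.4 FPKM in CNS, against 76.5 and 62.6 FPKM and 154 and 177 FPKM in dLN (log2 ratios -1.84 and -2.02). Il31, the itch cytokine of Th2 cells, was listed at 0 in both CNS libraries and was at 23.9 and 31.6 FPKM in dLN. It passed the minimum for testing only through dLN, so a difference in that direction was built into its being tested. Areg, the epidermal growth factor ligand amphiregulin, fell from 181 and 200 FPKM in dLN to 12.9 and 24.4 FPKM in CNS (log2 ratio -3.35, limma adjusted p = 0.000492). Epas1, Cd200r1 and Igfbp7 were the 3 called higher, with log2 ratios of 2.02, 1.37 and 2.46.

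**Figure D5:**
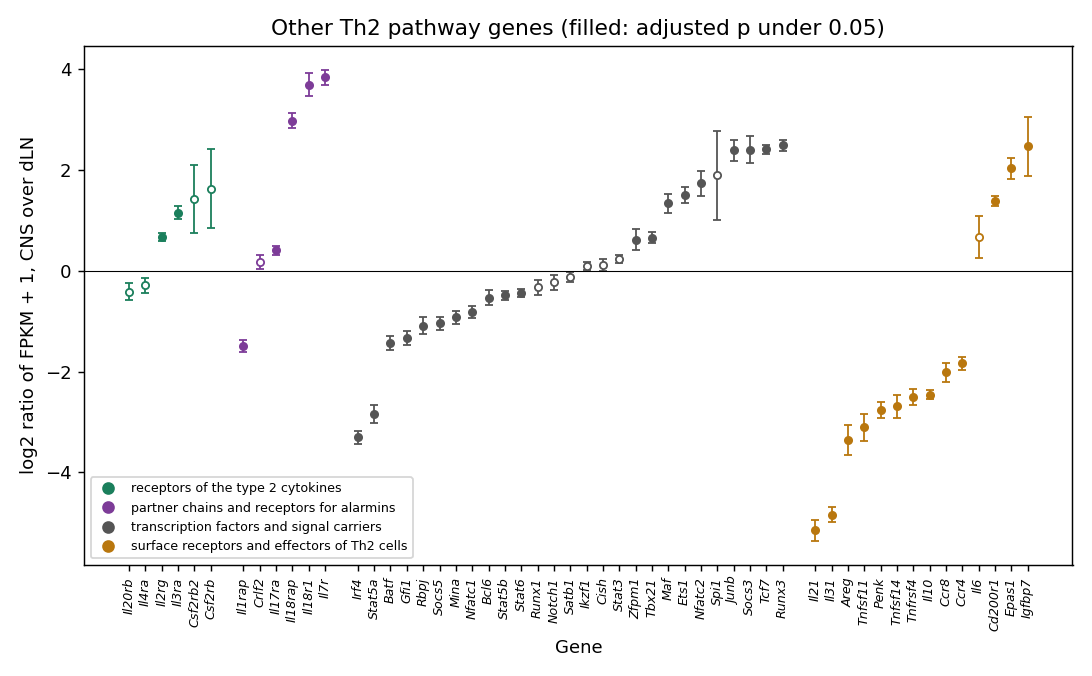
Log2 ratios (CNS over dLN, on FPKM + 1) of the 53 tested genes of the 4 Th2 pathway lists with bars of 1 standard error, filled where the adjusted p-value was under 0.05. Receptor chains lie mostly at or above 0, transcription factors spread to both sides, and most surface receptors and effectors lie below -1.

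Other effector cytokine genes of T cells were called lower about as often as all genes. Of 21 tested, 9 were called lower, against 37.2% of all genes, and 3 higher, against 37.8%, with a median log2 ratio of -0.36. Among the lower ones, Il2 (-7.70), Il17f (-8.00) and Il22 (-5.71) had ratios in the range of Il4 and Il3. Ifng, Ltb and Ccl5 were the 3 called higher. Of 40 genes that PMA and ionomycin induce, 24 were called lower, against 37.2% of all genes tested, 9 higher, against 37.8%, and 7 in neither direction. The median log2 ratio of the 40 genes was -1.14, and their summed level was 4748 and 6599 FPKM in CNS and 15150 and 17450 FPKM in dLN. The lowest log2 ratios of the same list were those of Il2 (-7.70) and Tnfsf8 (-6.55). Fos and Jun, also of this list, were higher in CNS, with log2 ratios of 3.29 and 4.49. Of 11 markers of regulatory T cells, some of which carry GATA3 and the IL-33 receptor, 8 were called lower, against 37.2% of all genes tested, and 2 higher, against 37.8%. Their summed level was 1011 and 1216 FPKM in CNS and 1671 and 1473 FPKM in dLN. Foxp3, which defines these cells, was at 24.7 and 35.9 FPKM in CNS and 81.6 and 78.2 FPKM in dLN (log2 ratio -1.39, limma adjusted p = 0.00194). The part of stimulation and of regulatory T cells in the lower type 2 genes was not tested.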

How the data were processed

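The RNA-seq series has 4 libraries of effector CD4 cells, 2 per tissue, made with TruSeq kits and sequenced on an Illumina HiSeq. Reads were trimmed and mapped by the authors, who deposited FPKM for 33819 RefSeq transcripts (build mm10), 1 table for each tissue. The aligner and the program that computed FPKM are not given in the sources used here. A single header cell names both CNS libraries, and the value columns were read in that order.

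Tables were joined by transcript ID and FPKM was summed by gene symbol, without 565 transcripts that have none (0.142% to 0.446% of FPKM). As FPKM is not a count, limma 3.58.1 (lmFit, then eBayes with trend, R 4.3.3) was fitted to log2(FPKM + 1) for tissue alone, over genes that average 1 FPKM or more in a tissue. Other steps used Python 3.11.15 (numpy 2.4.6, pandas 2.3.3, scipy 1.17.1, and for plots matplotlib 3.10.9). Low FPKM steps of single-transcript genes gave the depth and fragment counts. On simulated data for CNS against dLN with 10634 genes, limma recovered 53 of 100 genes changed by 1 and 84 of 100 changed by 2 on the log2 scale, with 4 calls on unchanged genes. Only 200 genes were changed there, whereas 74.9% of genes were called in the real data. The adjustment thus worked under another setting, and these counts do not carry over to the real fit. Starts are counted from 1 here, and strands came from GENCODE M21.

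The genes and lists were chosen with earlier results of these data known, and no list was tested as a set. In the lists, as among all genes tested, some genes passed the minimum through only one tissue. Il31 and Kit did so through dLN and Itih5 through CNS. A difference in that direction was built into their being tested, so the counts of calls are a description. The rule allowed any pathway gene or neighbour that reached 1 FPKM in a tissue to be named, and genes of other lists by level or size of change. Of the pathway genes it allowed, only some are named, chosen with their values known. For each of Il4, Il13, Il3 and Gata3 the 3 nearest genes were named. Genes named for low or 0 values, or outside these rules, were chosen after their values were seen, as was the fit across transcripts. With 2 fragments of Il4 in CNS, a ratio with an exact interval replaced the planned lower bound. Alternatives covered pseudocounts, filters, scalings, the highest transcript, a block for the replicate number, eBayes without trend, a minimum ratio and leaving out each library.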

Additional observations from a re-analysis of the deposited data

How the results depend on the processing

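In 108 of 112 comparisons of the 7 tested genes and the Il1rl1 transcripts with another setting, direction and side of the threshold held. The exceptions were all of Il1rl1. Its log2 ratio of -0.32 became 0.12 when the highest transcript replaced the sum, which leaves only the long transcript, and -0.51, past the threshold, with the same sum per library. It ranged from -0.48 to -0.17 with each library left out, and passed the threshold without dLN replicate 2. The ratio of its long transcript turned to -0.060 with the same sum per library, a scaling that moved the median log2 ratio of all genes from 0.05 to -0.13, while the same upper quartile moved it to 0.16. Across settings the log2 ratio of Gata3 lay between -1.16 and -0.83, that of Il3 between -5.66 and -5.27 and that of Il13 between -5.09 and -4.19, whereas those of Il4 (-10.55 to -7.79), Il5 (-7.24 to -3.94) and Il9 (-4.42 to -1.56) widened with the pseudocount. The limma adjusted p-values of Gata3 did not exceed 0.0188. Without a filter on low values, Il24 had a log2 ratio of -0.18 (limma adjusted p = 0.0245) from no more than 3 fragments per library. A minimum size of 1 for the log2 ratio lowered the genes called from 7968 to 4168 (1938 lower, 2230 higher) and the lower genes of the set from 6 to 5, because a further criterion is added. Replicate numbers recur in CNS and dLN, but across genes the differences between replicates correlated at 0.0933 from tissue to tissue, so the libraries were not treated as pairs. A block for the replicate number, tried as an alternative, left 6 genes of the set called lower and Il1rl1 at -0.32 (limma adjusted p = 0.0624). With 13 and 16 fragments in dLN, depth limits Il9 most among the genes called.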
